A study of Mus musculus with 8 samples.

Results

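The ATF4 amino acid program was followed through 10 genes in mouse liver and liver tumours, namely Atf4, Atf5, Ddit3, Trib3, Asns, Phgdh, Psat1, Psph, Mthfd2 and Slc7a11. They were chosen by name, and each was read from the probe with the highest mean over the 8 arrays among the probes that the platform's probe-to-gene table assigns to it. All 10 were found among 19321 genes on the array, with 11 probes in all. Every mouse had received the chemical carcinogen DMBA when 4 to 5 days old and was then kept on its diet for 30 weeks. The 3 groups were tumour tissue of high fat diet-fed livers (3 arrays, mice 117, 186 and 1), tissue outside the tumour from the same 3 livers (3 arrays), and liver of normal diet-fed mice (2 arrays, mice 117 and 120). The number 117 on normal diet is another animal than the number 117 on high fat diet. The labels used here give no strain, sex or genotype, and each array held the RNA of 1 piece of bulk tissue.

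ATF4 is the transcription factor of the integrated stress response. Kinases that sense amino acid shortage, misfolded protein in the endoplasmic reticulum, haem shortage or viral RNA phosphorylate the initiation factor eIF2, and general translation then slows while the Atf4 messenger is translated more. The control of ATF4 is therefore in large part translational, which an array of RNA does not measure. ATF4 pairs with C/EBP proteins on composite promoter elements and switches on genes of amino acid uptake and synthesis, among them the serine pathway, which branches from glycolysis and feeds glycine and folate-bound one-carbon units. In normal liver this synthesis runs beside a strong breakdown of amino acids by hepatocytes.

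The letters TGATGNAA, the core shared by C/EBP-ATF composite elements, were searched on both strands in RefSeq promoters of build GRCm38.p6 (250 bases before to 50 after the annotated start). They occurred in 3 of 12 promoters of the 10 genes, and in 3.97% of all 32851 promoters of that length. The 3 promoters belonged to Asns, Trib3 and Slc7a11, which are shown because the core stands before or just after the start of 2 genes that rose in tumours and of 1 that stayed near the detection limit. Capitals mark the match. The match of Trib3 and the second of Slc7a11 are on the opposite strand and appear as the reverse complement, and the 30 bases of Trib3 lie just after the annotated start.
Asns, chr6:7693210-7693459, minus strand: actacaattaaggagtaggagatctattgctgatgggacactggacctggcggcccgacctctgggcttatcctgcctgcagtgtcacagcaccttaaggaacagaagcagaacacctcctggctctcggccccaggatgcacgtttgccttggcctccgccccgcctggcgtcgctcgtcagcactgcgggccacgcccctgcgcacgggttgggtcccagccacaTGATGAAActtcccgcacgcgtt
Slc7a11, chr3:50443614-50443863, minus strand: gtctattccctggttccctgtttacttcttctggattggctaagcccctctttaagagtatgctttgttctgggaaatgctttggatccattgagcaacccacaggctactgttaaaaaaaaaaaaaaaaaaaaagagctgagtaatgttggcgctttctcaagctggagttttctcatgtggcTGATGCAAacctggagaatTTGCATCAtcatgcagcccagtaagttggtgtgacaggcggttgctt
Trib3, chr2:152344028-152344057, minus strand: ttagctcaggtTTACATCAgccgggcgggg
The other promoters of the 10 genes held no match in this window, and none held the cyclic AMP response element letters TGACGTCA, found in 1.79% of all promoters.

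Tumours carried more RNA of most of these genes than the liver around them, and Psat1 and Asns stood out by the size of their fitted differences. Levels are deposited normalized intensities, scaled so that the middle probe of those with a value reads 25 on every array. Probes near the level of the blank spots have no deposited value and are called not listed. Log2 differences come from a limma fit of all 8 arrays and 16799 genes on background-corrected, quantile normalized scanner signals, are given ± SE, and are called at an adjusted p (Benjamini-Hochberg over all genes) below 0.05. Of the 10 genes 9 were listed on all 8 arrays. Of these 9, Atf4, Ddit3, Trib3, Asns, Psat1 and Psph rose in tumours against non-tumour tissue, 6 of 9 where 12.6% of all genes listed on every array were called higher. None was called lower, where 14.6% of those genes were. On the normalized log2 scale of the fit all tumour arrays lay above all non-tumour arrays for these same 6 genes, where 19.4% of those genes separated that way and 23.1% the other. The median log2 difference of the 9 was 1.10, against -0.01 over all genes listed on every array. The tenth, Phgdh, could enter the test only through the tumours and is described apart. Arrays hold bulk RNA, so more cells that use a gene and more of its RNA per cell cannot be told apart.

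**Figure D1:**
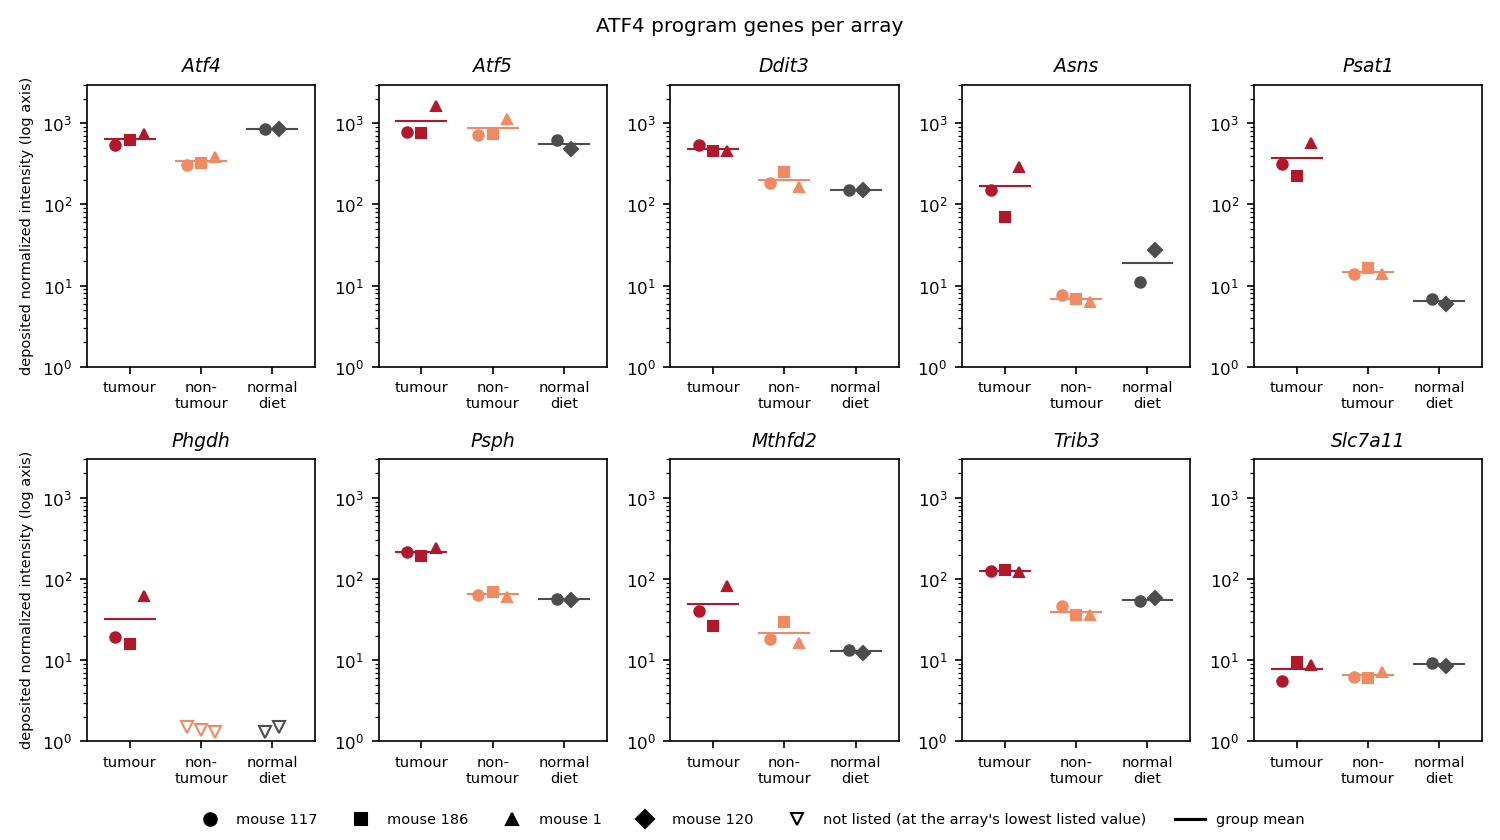
Deposited normalized intensity (log axis) of the 10 genes on each array, by group, with 1 panel per gene. Points are arrays (marker shape gives the mouse), horizontal lines are group means, and open triangles mark arrays on which the probe was not listed, drawn at that array's lowest listed value. Asns and Psat1 show the widest gap between tumour and non-tumour tissue, Phgdh is listed in tumours alone, and Atf4 is highest on normal diet.

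Atf4 itself was at 540, 616 and 743 in tumours, against 310, 325 and 388 in non-tumour tissue (mice 117, 186 and 1). Every tumour array lay above every non-tumour array, and the means were 633 ± 102 and 341 ± 41.6 (SD, n = 3 each). The log2 difference was 1.03 ± 0.09 (limma adjusted p 0.000889).

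Ddit3 encodes CHOP, the partner and target of ATF4 that drives the later, death-prone phase of the response. It was at 537, 456 and 454 in tumours and at 184.2, 248.7 and 164.1 in non-tumour tissue. Its groups did not overlap, and the log2 difference was 1.30 ± 0.16 (limma adjusted p 0.00232). Trib3, a pseudokinase induced by ATF4 and CHOP that in turn restrains ATF4, was at 127, 131 and 123 in tumours, against 46.6, 35.6 and 36.1 in non-tumour tissue. The 3 tumours were nearly equal for Trib3 (127 ± 3.85, SD, n = 3), whereas Asns and Psat1 varied more from tumour to tumour. The log2 difference of Trib3 was 1.10 ± 0.07 (limma adjusted p 0.000391).

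Atf5 encodes a related leucine zipper factor that is translated under the same stress. Its levels were 779, 768 and 1646 in tumours and 714, 736 and 1134 in non-tumour tissue. The groups overlapped because non-tumour tissue of mouse 1 lay above the tumours of mice 117 and 186. The log2 difference of 0.52 ± 0.29 was not called (limma adjusted p 0.251, 95% interval -0.17 to 1.22). With mouse as a block it was called (adjusted p 0.0466, the lowest of its alternatives, which reached 0.785). Mouse 1 was the highest of the 3 in both tissues.

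Asns, which makes asparagine from aspartate and glutamine, was at 149, 69.8 and 292 in tumours, against 7.60, 6.80 and 6.30 in non-tumour tissue. The lowest tumour was thus about an order of magnitude above the highest non-tumour array, and the mean levels (170 ± 113 and 6.90 ± 0.656, SD, n = 3 each) differed 24.7-fold. Its log2 difference was 1.97 ± 0.37 (limma adjusted p 0.0109). The fixed offset of 50 added to every scanner signal shrinks the differences of dim genes: from the deposited values, with a pseudocount of 1, the log2 difference of Asns was 4.21. Non-tumour levels this low lie near the dim end of the listed values, where the size of a fold is uncertain.

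Of the 3 serine synthesis enzymes, Psat1 and Psph were called higher in tumours. Phgdh, the first and committed enzyme, which oxidises phosphoglycerate, was at 19.3, 16.0 and 62.5 in tumours and was not listed on any array of non-tumour tissue or of normal diet liver. On those arrays its own signal was at or below 0.517 on the same scale. Tumours were at least 19.2-fold higher than non-tumour tissue, with the lowest listed value of each array (1.3 to 1.5 there) as the bound. Without the tumour of mouse 1 this was at least 12.6-fold, an alternative chosen after seeing the data. Phgdh entered the fit only through the tumours, so its fitted log2 difference, 0.71 ± 0.21 with a limma adjusted p of 0.0475, is a description and is counted here as no call. That p ended above 0.05 in 10 of 16 alternatives, mouse as a block among them (0.0916), in a range of 0.000415 to 0.693.

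Psat1, the aminotransferase of the second step, was at 312, 223 and 571 in tumours, against 13.9, 16.3 and 13.8 in non-tumour tissue. It had the 17th highest log2 difference of 16799 genes, 2.84 ± 0.27 (limma adjusted p 0.00105), and the mean levels of 369 ± 181 and 14.7 ± 1.42 (SD, n = 3 each) differed 25.1-fold. Psph, the phosphatase that releases serine, was at 213, 191 and 244 in tumours and at 63.7, 69.4 and 61.0 in non-tumour tissue. Its tumours varied less than those of Psat1, and its log2 difference was 1.35 ± 0.08 (limma adjusted p 0.000281). The mean levels of Psph differed 3.34-fold.

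Mthfd2, the mitochondrial folate dehydrogenase of proliferating and embryonic cells, was at 40.7, 26.6 and 82.4 in tumours and at 18.1, 30.0 and 16.3 in non-tumour tissue. The tumour of mouse 186 was below the non-tumour tissue of its own liver, so the groups overlapped. The log2 difference was 0.49 ± 0.21 (limma adjusted p 0.157, 95% interval -0.03 to 1.00). Without the tumour array of mouse 186 it was 0.70 with an adjusted p of 0.0325, the lowest of its alternatives, which reached 0.395.

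Slc7a11, the cystine-glutamate exchanger that supplies cysteine for glutathione, stayed near the detection limit. It was at 5.5, 9.5 and 8.7 in tumours, 6.3, 6.0 and 7.2 in non-tumour tissue and 9.3 and 8.5 on normal diet, and 33.7% of all genes were dimmer on average. The log2 difference between tumour and non-tumour tissue was 0.03 ± 0.02 (limma adjusted p 0.367, 95% interval -0.02 to 0.09), and 0.22 from the deposited values. Its other probe was listed on 1 array alone, the tumour of mouse 186, at 7.5. At this brightness the arrays say little about Slc7a11.

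**Figure D2:**
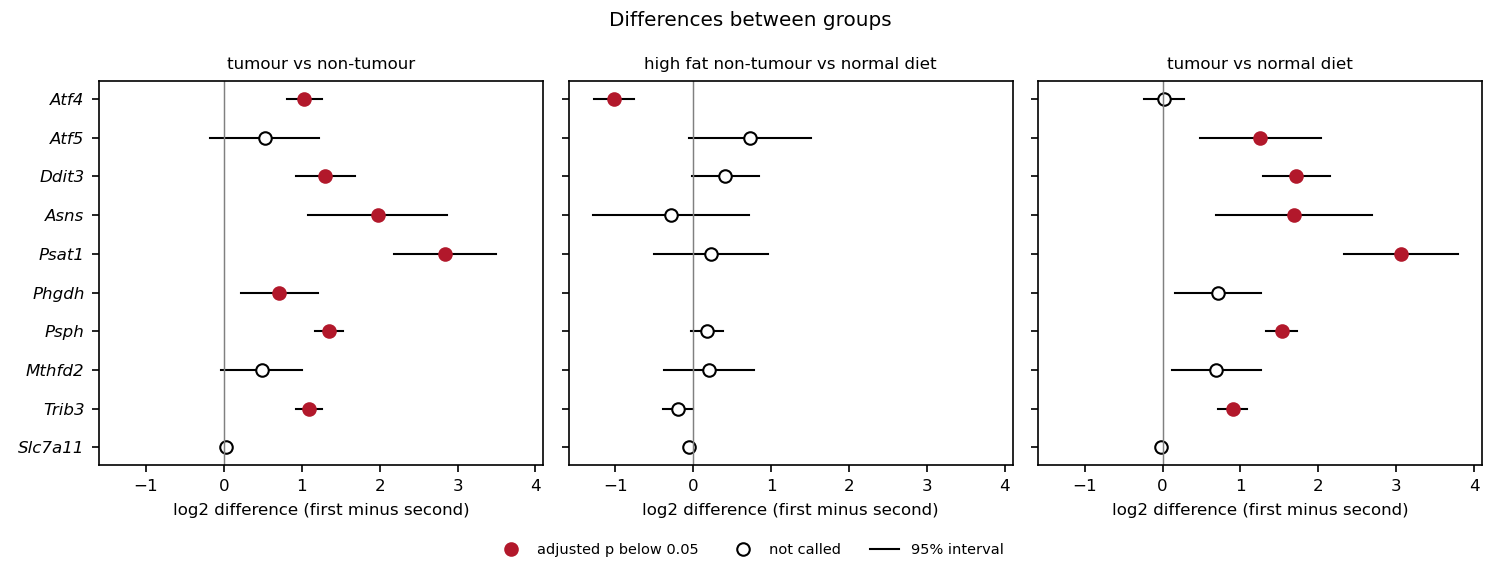
Log2 differences of the 10 genes in the 3 comparisons, with 95% intervals from limma (x axis: first named group minus second). Filled points have an adjusted p below 0.05. Atf4 was called higher in tumours than in non-tumour tissue and lower in non-tumour tissue than on normal diet, and Phgdh, tested only through the tumours, is left out of the middle panel because it was not listed in either group.

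Levels of the program differed between the 3 tumours. On the deposited scale the tumour of mouse 1 was the highest of the 3 for 7 of the 10 genes (Atf4, Atf5, Asns, Psat1, Phgdh, Psph and Mthfd2). The tumour of mouse 186 was the lowest for 6 of them, all but Atf4 in that list. Over all 15851 tested genes listed on the 3 tumour arrays, the tumour of mouse 1 was the highest for 41.0% and that of mouse 186 the lowest for 21.9%. Over 2501 genes whose 3 tumour levels all lay above the non-tumour levels, which leaves out Atf5, Mthfd2 and Slc7a11, these shares were 60.2% and 36.1%. The count for mouse 1 thus lay near its share of those 2501 genes. No test was made of this order, since 1 array stands for each tumour.

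Within single livers, tumour over non-tumour ratios of Asns were 19.6 in mouse 117, 10.3 in mouse 186 and 46.4 in mouse 1. Those of Psat1 were 22.4, 13.7 and 41.4 in the same order of mice. Psph, at 3.35, 2.76 and 4.00, followed the same order over a narrower range. Trib3 did not: its ratio was highest in mouse 186, at 3.67, against 2.72 in mouse 117 and 3.41 in mouse 1. For Mthfd2 the ratio was 0.887 in mouse 186, the only liver where it lay below 1, and 5.06 in mouse 1.

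**Figure D3:**
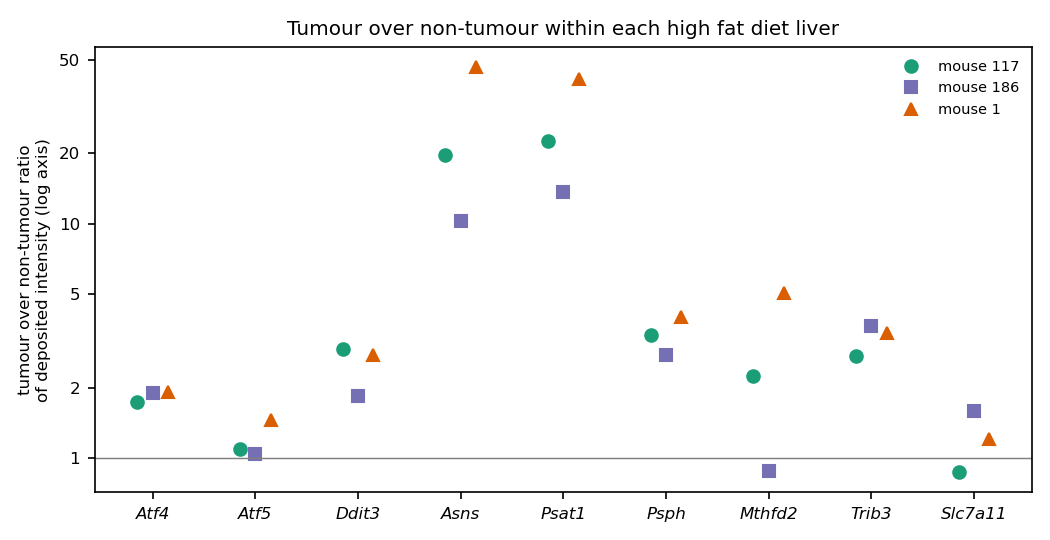
Ratio of tumour over non-tumour deposited intensity within each of the 3 high fat diet livers (log axis) for the 9 genes listed on all arrays. Asns and Psat1 range from 10.3 to 46.4 and lie highest in mouse 1 and lowest in mouse 186, and Atf4 lies between 1.74 and 1.91 in all 3 livers.

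In the comparison of diets, non-tumour tissue on high fat diet held less Atf4 RNA than liver of normal diet-fed mice. Atf4 was at 310, 325 and 388 in the high fat diet livers, against 855 and 852 on normal diet. All 3 high fat arrays lay below both normal diet arrays, and the mean levels were 341 ± 41.6 (SD, n = 3) and 854 ± 1.84 (SD, n = 2). The log2 difference was -1.02 ± 0.10 (limma adjusted p 0.00759). Atf4 was the only one of the 9 genes called. Over all genes tested 3.84% were called, 1.81% higher and 2.03% lower, and of genes listed on every array 1.96% were called higher and 2.15% lower. With either normal diet array left out, the other was assumed to vary like the other groups and the adjusted p was 0.0587 or 0.0706, and over all alternatives it lay between 0.00270 and 0.999.

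None of the other 8 genes was called between the diets. Psat1 was at 13.9, 16.3 and 13.8 in high fat non-tumour tissue and at 6.8 and 6.0 on normal diet, a log2 difference of 0.23 ± 0.30 (limma adjusted p 0.747, 95% interval -0.50 to 0.96) that was 1.08 from the deposited values. With the compared groups fitted alone it was called (adjusted p 0.0499, the lowest of its alternatives, which reached 0.999). Asns, in contrast, was at 7.60, 6.80 and 6.30 on high fat diet and at 11.1 and 27.2 on normal diet, with a log2 difference of -0.28 ± 0.42 (limma adjusted p 0.773). The 2 normal diet livers themselves were far apart in Asns. High fat and normal diet arrays did not overlap for any of the 9 genes, 5 being higher and 4 lower on high fat diet, where 21.5% and 23% of genes listed on every array separated in these directions (21% and 23% of all genes tested). Diet groups also differed in a scanner reading: the line that the file headers give between the first 2 gains had a slope of 0.464 to 0.465 on the high fat diet arrays and of 0.444 to 0.445 on the normal diet arrays, so whatever sets this slope and diet cannot be told apart.

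Tumours against normal diet liver, a comparison that shares its arrays with the other comparisons, gave 6 of the 9 genes higher and none lower, where 13.5% and 16.1% of genes listed on every array were called (27.8% of all genes tested in either direction, 12.9% higher and 15% lower). On the normalized log2 scale all tumours lay above both normal diet livers for 7 of the 9 and below for none, where 25.9% and 32.3% of genes listed on every array did so, but on the deposited scale Atf4 lay below. The 6 called genes were Atf5, Ddit3, Trib3, Asns, Psat1 and Psph. Psat1 was 57.6-fold higher by mean level (369 ± 181 in 3 tumours and 6.40 ± 0.566 in 2 normal diet livers, SD), with a log2 difference of 3.06 ± 0.30 (limma adjusted p 0.00111). Its normal diet levels too lie at the dim end, so the size of that fold is uncertain. Ddit3 rose by 1.72 ± 0.18 (adjusted p 0.00128), Psph by 1.53 ± 0.08 (adjusted p 0.000194) and Trib3 by 0.90 ± 0.08 (adjusted p 0.000680). Asns was 8.89-fold higher by mean level, with a log2 difference of 1.69 ± 0.42 (adjusted p 0.0263) whose call ended in 5 of 18 alternatives (range 0.00185 to 0.344). Atf5 rose by 1.25 ± 0.32 (adjusted p 0.0309), a call that ended in 6 of 18 alternatives and turned direction in another (range 0.0113 to 0.856). Phgdh was at least 19.2-fold higher than on normal diet, or 12.6-fold without the tumour of mouse 1. That bound rests on the lowest listed values of the normal diet arrays, so the size of this fold is uncertain too. Its fitted log2 difference, 0.71 ± 0.23 (limma adjusted p 0.0620), was not called. Mthfd2, at 49.9 ± 29.0 and 12.9 ± 0.778 (SD, n = 3 and 2), was not called (0.69 ± 0.24, adjusted p 0.0765), but was in 5 of 18 alternatives (range 0.00964 to 0.279).

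For Atf4 the tumours and normal diet liver were not separated in one direction. Its log2 difference was 0.02 ± 0.10 (limma adjusted p 0.924, 95% interval -0.23 to 0.27). From the deposited values, however, it was -0.44 (adjusted p 0.0870, and between 0.05002 and 0.987 over all alternatives), and all 3 tumours (540, 616 and 743) lay below both normal diet livers (855 and 852). On that scale the median of all genes also shifted by -0.17 between these groups. By mean deposited level Atf4 was thus highest on normal diet, then in tumours, then in high fat non-tumour tissue. Ddit3, Trib3, Asns, Psat1 and Psph were each highest in tumours.

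Genes around these members were counted from lists of the same pathways. Among other targets and partners of ATF4 and CHOP, 8 of 22 measured genes rose in tumours against non-tumour tissue and 2 fell, with a median log2 difference of 0.13 against -0.01 over all genes tested, of which 12% were called higher and 13.4% lower. Ddit4, an mTORC1 inhibitor induced by stress, was at 173, 230 and 415 in tumours and at 40.7, 80.8 and 72.5 in non-tumour tissue (log2 difference 1.59 ± 0.26, limma adjusted p 0.00682). Nupr1, a stress-induced chromatin protein, was at 114, 67.8 and 172 in tumours and at 21.3, 29.6 and 17.9 in non-tumour tissue (1.26 ± 0.23, adjusted p 0.00982). For both genes the tumour of mouse 1 was the highest. Ero1a, the oxidase that supports disulfide formation, rose by 0.75 ± 0.20 (adjusted p 0.0393), and Cebpb, a C/EBP partner of ATF4, fell by 0.71 on the log2 scale (SE 0.16, adjusted p 0.0227). A block for mouse left Nupr1 and Ero1a uncalled (adjusted p 0.0571 and 0.0998, and up to 0.550 and 0.188 over their alternatives), and with median scaling 5 genes of the list were called higher and 3 lower. Without tumour 117 or without non-tumour 117 the list had 4 genes higher, in a range of 4 to 7 with single arrays left out.

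Chac1, a glutathione-degrading enzyme and a target of ATF4 and CHOP in other cells, differed in direction from Atf4 in both comparisons. It was at 61.4, 53.0 and 76.2 in tumours, 97.5, 114 and 121 in high fat non-tumour tissue, and 27.1 and 14.9 on normal diet. Groups did not overlap in any of the 3 comparisons. It rose on high fat diet by 1.24 ± 0.12 (limma adjusted p 0.00611), where Atf4 fell, and was lower in tumours than in non-tumour tissue by a log2 difference of -0.49 ± 0.11 (adjusted p 0.0177), where Atf4 rose. The call between tumour and non-tumour tissue was lost once mouse entered as a block (adjusted p 0.0535, in alternatives from 0.00855 to 0.533). Vldlr, the very low density lipoprotein receptor and another target, was also called higher on high fat diet (0.77 ± 0.15, adjusted p 0.0484), in 10 of 18 alternatives as well.

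Upstream of ATF4, 3 of 16 measured genes of the eIF2 kinases, eIF2 and its exchange factor and phosphatase subunits rose in tumours and 2 fell, with a median log2 difference of 0.00. These counts are near the shares of all genes tested, of which 12% were called higher and 13.4% lower. Ppp1r15a, the inducible phosphatase subunit GADD34 that reverses eIF2 phosphorylation, was at 55.9, 78.1 and 72.1 in tumours, against 37.5, 44.0 and 31.8 in non-tumour tissue (0.48 ± 0.09, limma adjusted p 0.0124). Of the exchange factor subunits Eif2b3 rose (0.38 ± 0.06, adjusted p 0.00439), while Eif2b4 and Eif2b1 fell by 0.34 and 0.29 on the log2 scale (adjusted p 0.0367 and 0.0230). With mouse as a block Eif2b4 was not called (adjusted p 0.0630, in alternatives from 0.0217 to 0.996).

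Of 20 measured enzymes of serine, glycine and folate one-carbon metabolism outside the members, 10 fell in tumours against non-tumour tissue, 10 were not called and none rose, where 13.4% of all genes tested were called lower. Their median log2 difference was -0.26, against -0.01 over all genes tested, of which 12% were called higher. Among them were Gnmt, the glycine methyltransferase of hepatocytes, at 899, 740 and 375 in tumours and 3933, 3393 and 4854 in non-tumour tissue (-2.34 ± 0.34, limma adjusted p 0.00439). Dmgdh and Sardh, which strip methyl groups from dimethylglycine and sarcosine, fell by 1.39 and 1.15 on the log2 scale, and the cytosolic folate enzyme Mthfd1 by 0.79 (adjusted p 0.000301, 0.00475 and 0.00202). Each of these 4 genes was lower in all 3 tumours than in all 3 non-tumour samples. In high fat non-tumour tissue 3 of the 20 were lower than on normal diet, where 2.03% of all genes tested were called lower. Of these 3, Aldh1l1, the folate dehydrogenase of liver cytosol, was lower by 0.97 and Dmgdh by 0.67 (SE 0.18 and 0.09, limma adjusted p 0.0414 and 0.0173, called in 9 and 13 of 18 alternatives).

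In the list of asparagine, glutamine, proline, alanine and transsulfuration enzymes 8 of 16 measured genes fell in tumours and 2 rose. Their median was -0.47, against -0.01 over all genes tested, of which 13.4% were called lower and 12% higher. The count of 2 that rose is near the latter share. Without non-tumour 117 or without non-tumour 1, 5 fell and 1 rose. Prodh, the proline oxidase, was at 93.7, 113 and 23.4 in tumours and at 832, 597 and 679 in non-tumour tissue (-2.57 ± 0.34, limma adjusted p 0.00299). Cth, which makes cysteine from cystathionine, was at 417, 420 and 344 in tumours, 1452, 1409 and 1668 in high fat non-tumour tissue and 4103 and 3201 on normal diet. The 3 groups did not overlap for Cth, and it was called lower in tumours than in non-tumour tissue (-1.63 ± 0.12, adjusted p 0.000606) and lower in high fat non-tumour tissue than on normal diet (-0.97 ± 0.14, adjusted p 0.0204, called in 13 of 18 alternatives). The 2 genes that rose were Glud1, glutamate dehydrogenase (1.01 ± 0.08, adjusted p 0.000669), and Aldh18a1, the first enzyme of proline synthesis, at 16.8, 15.8 and 33.8 in tumours and 3.70, 4.70 and 4.50 in non-tumour tissue (0.43 ± 0.10, adjusted p 0.0199). Both were chosen for naming after their values were seen, and with mouse as a block Aldh18a1 was not called (adjusted p 0.0596, in alternatives from 0.000702 to 0.244).

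**Figure D4:**
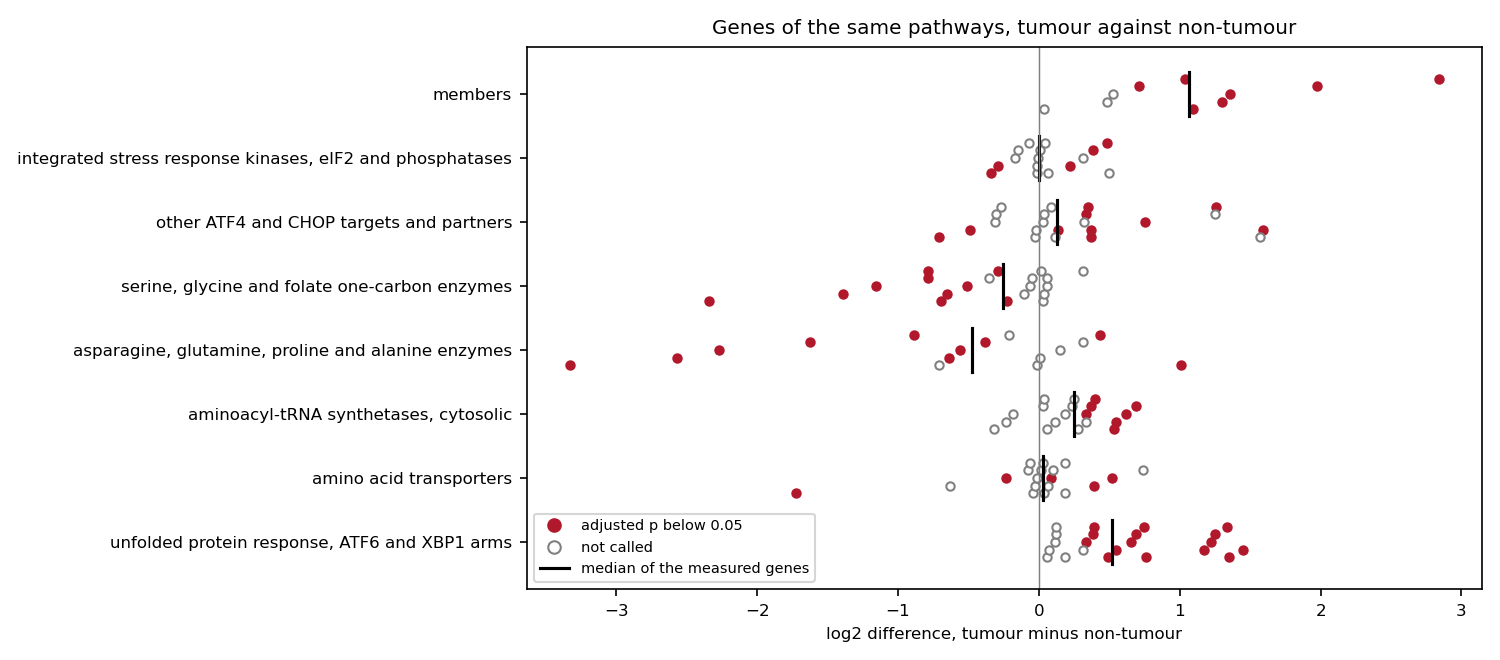
Log2 differences between tumour and non-tumour tissue (x axis) for the measured genes of the member list and 7 lists of the same pathways, 1 point per gene. Filled points have an adjusted p below 0.05 and vertical bars are list medians. The members lie to the right of 0, from 0.03 for Slc7a11 to 2.84 for Psat1, and the one-carbon list has 10 called genes to the left and none to the right.

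Cytosolic aminoacyl-tRNA synthetases charge transfer RNAs with amino acids and include known ATF4 targets. Of 19 measured, 7 rose in tumours against non-tumour tissue and none fell, with a median of 0.25. Over all genes tested 12% were called higher and 13.4% lower, with a median of -0.01. Sars, the seryl synthetase, had the largest called difference (0.69 ± 0.11, limma adjusted p 0.00634), with 256, 245 and 357 in tumours and 164, 172 and 208 in non-tumour tissue. Gars, Cars and Iars rose by 0.62, 0.55 and 0.53 (adjusted p 0.0275, 0.0360 and 0.00172). With scaling to the same median, and likewise without tumour 117 or without non-tumour 1, 4 synthetases were called in place of 7, and with mouse as a block 6 were higher and 1 lower, Cars not among them (adjusted p 0.0671, in alternatives from 0.00647 to 0.620). Among 18 amino acid transporters listed on all arrays 2 were called higher and 2 lower, near the shares of all genes listed on every array (12.6% and 14.6%). Slc38a1, also called higher, was tested only through the tumours. Slc3a2, the heavy chain that Slc7a11 and other carriers need, rose by 0.52 ± 0.13 (adjusted p 0.0285), while the glutamate carrier Slc1a2 was at 17.3, 61.6 and 2.50 in tumours and at 234, 130 and 209 in non-tumour tissue (-1.73 ± 0.30, adjusted p 0.00852). A block for mouse left both uncalled (adjusted p 0.0907 and 0.0568, in alternatives from 0.0146 to 0.943 for Slc3a2 and from 0.00283 to 0.150 for Slc1a2), where 1 of the 19 transporters tested was called higher and 2 lower.

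Of the other arms of the unfolded protein response, run by ATF6 and XBP1, 15 of 22 genes rose in tumours and none fell (median 0.52). Among all genes tested 12% were called higher and 13.4% lower (median -0.01). With median scaling 10 of them were called higher. Sdf2l1, an endoplasmic reticulum chaperone cofactor, and Manf, a secreted stress protein, rose by 1.35 ± 0.21 and 1.33 ± 0.09 (limma adjusted p 0.00543 and 0.000423). Between high fat non-tumour tissue and normal diet liver none of the 22 was called by limma, where 3.84% of all genes tested were called. With so small a share, no call among 22 genes says little about them.

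Cell type markers were summed per array on the deposited scale, and their part in the results above was not tested. Hepatocyte markers summed to 225025 to 249069 in tumours, 200040 to 207318 in non-tumour tissue and 249552 to 255803 on normal diet, without overlap between tumour and non-tumour tissue. These sums are carried by the bright probes of Alb, Ttr, Trf, Apoa1, Serpina1a and Fgb. Of the 12 markers 4 rose and 3 fell in tumours against non-tumour tissue. In that comparison 12% of all genes tested were called higher and 13.4% lower. Marker lists below with 1 or 2 calls in a direction lie near these shares. By mean level Apoa1, Serpina1a and Fgb were higher in tumours (ratios 1.66, 1.51 and 1.88). Cps1, Cebpa, Tat and Pck1 were lower (0.375, 0.602, 0.350 and 0.230), all named after their values were seen. Tat overlapped between the groups on the normalized log2 scale. The ratios of Trf, Hnf4a and Alb were 1.13, 1.15 and 1.01, and those of Apob and Ttr 0.978 and 0.884. The sums of cell cycle markers overlapped (724 to 1053 in tumours, 918 to 1050 in non-tumour tissue and 796 to 953 on normal diet), but these sums are carried by the bright probes of Pcna and Aurkb. Of 13 cell cycle markers 3 were called higher in tumours against non-tumour tissue, Mki67, Ccna2 and Birc5 (ratios of mean levels 1.99, 3.05 and 1.76), and 1 lower, Pcna (0.685). Without tumour 117 the count was 7 higher. Against normal diet it was 8 of 13, where 12.9% of all genes tested were called higher. Mki67, Ccna2, Birc5 and Pcna were named after their values were seen. Pancreatic acinar markers summed to 136 to 195 in tumours, 131 to 158 in non-tumour tissue and 160 to 170 on normal diet. Of 9 measured acinar markers 1 rose, Cela2a, and Cpa1 was listed on no array. The macrophage sums overlapped too and are carried by Lyz2, but of 9 markers 2 were called higher, Cd14 and Mpeg1 (ratios 6.89 and 2.09), and 2 lower, Clec4f and Vsig4 (0.252 and 0.340). Stellate, cholangiocyte and lymphocyte sums overlapped between tumour and non-tumour tissue, with 1 of 10, 0 of 7 and 0 of 9 called higher and 1, 1 and 0 lower. Endothelial sums did not overlap, at 375 to 478 in tumours and 280 to 354 in non-tumour tissue, with 2 of 9 markers called higher and 0 lower.

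When the scanner's local background was used in place of the blank spots, the only member still called between tumour and non-tumour tissue was Ddit3, and calls over all genes fell to 95 higher and 30 lower, against 2008 and 2259. Each of the 7 pathway lists then had at most 1 gene called. Spots with a higher signal also had a higher local background (rank correlation across spots 0.902 to 0.960 on each array).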

How the data were processed

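Amplified RNA of 8 liver samples was coupled to Cy5 and hybridised to single-colour oligonucleotide arrays, per the labels' protocols. The scanner files hold the median intensity of each spot and of its local background, per the file headers. The deposited value table holds a normalized intensity that, as recomputed here, is the spot median minus the mean of 2736 blank spots, scaled by 1 factor per array to a median of 25 (r2 = 1). Each array has a value for 81.8% to 88.5% of probes. How the authors chose the listed probes is not given in the sources used here.

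For the tests, normexp background correction used the blank spots as its negative controls, 50 was added to each signal, and log2 values were quantile normalized between arrays. Of 19321 genes with a symbol, read from the brightest probe, 16799 had a value on every array of 1 or more groups and were tested with limma 3.58.1 in R 4.3.3 (5 residual and 1.49 prior degrees of freedom). Intervals and adjusted p values are from this fit, which was tested on simulated data. Of genes shifted by 1 on the log2 scale between tumour and non-tumour tissue it called 88.1%, and of those shifted by 0.5 it called 67.2%. Of unshifted genes it called 0.108%, which is not the share of its calls that were false. A far smaller share of genes was shifted in the simulation than the 25.4% called between tumour and non-tumour tissue. Rates of this kind depend on that share, so they need not hold for these data. The number of arrays limits the precision.

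Tumour and non-tumour samples of the same number come from 1 liver, per the labels. Deviations from group means correlated at 0.443, 0.148 and 0.167 within mice 117, 186 and 1. Mouse stayed out of the fit and was a block in an alternative. The members, lists and tests were chosen with earlier results of these data known. Named list genes are the up to 4 called between tumour and non-tumour tissue with the largest difference, and up to 2 called between diets, and the text takes a part of them. Of 254 list entries, 232 were on the array and 222 were measured.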

Additional observations from a re-analysis of the deposited data

How the results depend on the processing

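With normexp on the local background, 1 member (Ddit3) was called higher in tumours than in non-tumour tissue and 1 than on normal diet, with all-gene calls of 95 higher and 30 lower and of 130 and 87. Between diets that setting called 0 members lower, and 0 genes higher and 3 lower. Log2 differences there turned for Atf5 (-1.44 against non-tumour tissue, -0.90 against normal diet) and Atf4 (-0.17 against normal diet). Atf4 against normal diet was also -0.44 with the deposited values at both pseudocounts (1 and 10), and lay between -0.0579 and 0.104 with single arrays left out. Slc7a11 against normal diet was 0.0218 with all probes averaged. Between diets, 481 genes (offset 10) or 1084 (median scaling) were called higher against 304, 781 lower (deposited values, pseudocount 10) against 341, and 1 member higher with the compared groups alone. Tumours against normal diet gave 4189 genes lower with median scaling against 2513. With single arrays left out, the diets gave 0 to 1 members lower, 49 to 400 genes higher and 51 to 391 lower, and tumours against normal diet gave 1032 to 2173 higher and 1284 to 2377 lower. The share of calls that were higher moved to 76% (local background) or 37.3% (median scaling) between tumour and non-tumour tissue against 47.1%. It moved to 77.3% (median scaling), 60.9% (blank mean subtracted) or 28.0% (deposited values, pseudocount 10) between diets against 47.1%, and to 31.3% and 28.9% with the deposited values between tumours and normal diet against 46.2%. The medians of all genes on the deposited scale (pseudocount 1) were -0.11 between diets and -0.17 between tumours and normal diet. The cause of these shifts was not tested.

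With mouse as a replicate block, the pairing of tumour and non-tumour tissue gave 7 members higher, Atf5 among them and Phgdh not. Over all genes 1642 were then higher and 1843 lower. Without the block 6 members were called, Atf5 not among them. Phgdh, with a fitted adjusted p below 0.05 there, is counted as no call because it was tested only through the tumours. The block changed no other member's call. A block for slide or scan was not run because the files used here name none. The 8 arrays, 2 of them on normal diet, limit the precision, and genes near the blank signal, such as Slc7a11 and Phgdh, limit what can be read from their differences.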
